A study of Mus musculus with 6 samples.

Results

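The 44 genes described here encode the actin cytoskeleton and the contractile apparatus built on it. They were taken as a fixed list of mouse symbols, all of them protein-coding, and each was matched to 1 of the 55385 gene identifiers in the deposited tables. RNA came from cortical neurons taken from mouse embryos at embryonic day 18 and grown for 16 days in vitro. In the libraries labelled activated (n = 3), cells had received KCl for 5 minutes, followed by washing and 30 minutes of recovery. In the libraries labelled control (n = 3), cells had received no KCl. All cultures, in both groups, had been given 2.5 uM AraC, which blocks DNA synthesis and so limits dividing cells, for 24 hours starting on day 2. The labels state the KCl dose as 50 mM in the protocol and as 50 uM in the treatment field. No mouse strain is named. Whether the replicates came from separate cultures or litters is not stated either, so each p-value reflects the scatter among these libraries alone, which may be technical.

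Actin filaments assemble from monomers at one end and are disassembled by severing proteins of the cofilin family, while capping protein blocks the growing end and the Arp2/3 complex starts new branches. Filamins and alpha-actinins tie filaments together, tropomyosins coat them, non-muscle myosin II pulls on them, and talin, vinculin, ezrin and moesin link them to the membrane. In neurons this machinery shapes growth cones and dendritic spines. In smooth muscle and pericytes it is accompanied by contractile proteins such as smooth muscle actin, calponin and transgelin. Many of the genes for these proteins are known targets of the transcription factor SRF and its MRTF coactivators.

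Gene reads ranged from 17752711 to 32740171 in libraries labelled activated and from 22994946 to 32919975 in those labelled control. Mitochondrial genes held 21.3% to 25% of gene reads in labelled activated and 14.7% to 17.1% in labelled control libraries. All 5 activity-induced genes checked (Arc, Npas4, Fos, Fosb and Egr2) ran against the labels: Arc stood at 46.3 to 52.1 CPM (gene counts scaled to a common library size) in labelled activated and 163 to 186 CPM in labelled control libraries, and Npas4 at 42.3 to 47.9 CPM against 147 to 169 CPM. Groups are therefore called by their labels throughout, and every direction below rests on the labels. All 10 pan-neuronal markers listed were detected, at a summed 4674 to 5184 CPM in labelled activated and 5319.6 to 5489 CPM in labelled control libraries. Of these markers 8 were lower, against 20.6% of all tested genes. Map2 was the 1 called higher (2027 ± 121 against 1691 ± 72.1 CPM, ± SD, n = 3 each).

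The 44 genes split into opposite directions. All 44 passed the low-count filter. Relative to labelled control libraries, 18 rose, 17 fell and 9 stayed above the adjusted p threshold of 0.05, set over all 18132 genes that edgeR tested by quasi-likelihood. Over all tested genes, 36.8% passed, with 16.2% higher and 20.6% lower, against 40.9% higher and 38.6% lower among the 44. The groups did not overlap for 18 genes in the higher and 18 in the lower direction, against 49.0% of all tested genes in either direction, 22.6% higher and 26.4% lower. The median log2 fold change was −0.03 over the 44 genes and 0.04 over all genes, and the range ran from −0.69 for Cfl1 to 1.78 for Cnn1. The cytoplasmic actins and the genes of filament turnover and branching lay mostly on the lower side, and the calponins, transgelins, filamins and membrane linkers mostly on the higher side. These genes made up 0.460% to 0.499% of gene reads in labelled activated and 0.582% to 0.591% in labelled control libraries, and 0.597% to 0.634% against 0.683% to 0.713% once mitochondrial reads were set aside. Such a share is weighted to abundant genes, above all Actb (mean 1296 CPM in labelled activated against 1738 CPM in labelled control libraries). It does not stand for the 44 genes one by one. In bulk RNA, fewer cells of a type and less RNA per cell cannot be told apart.

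**Figure D1:**
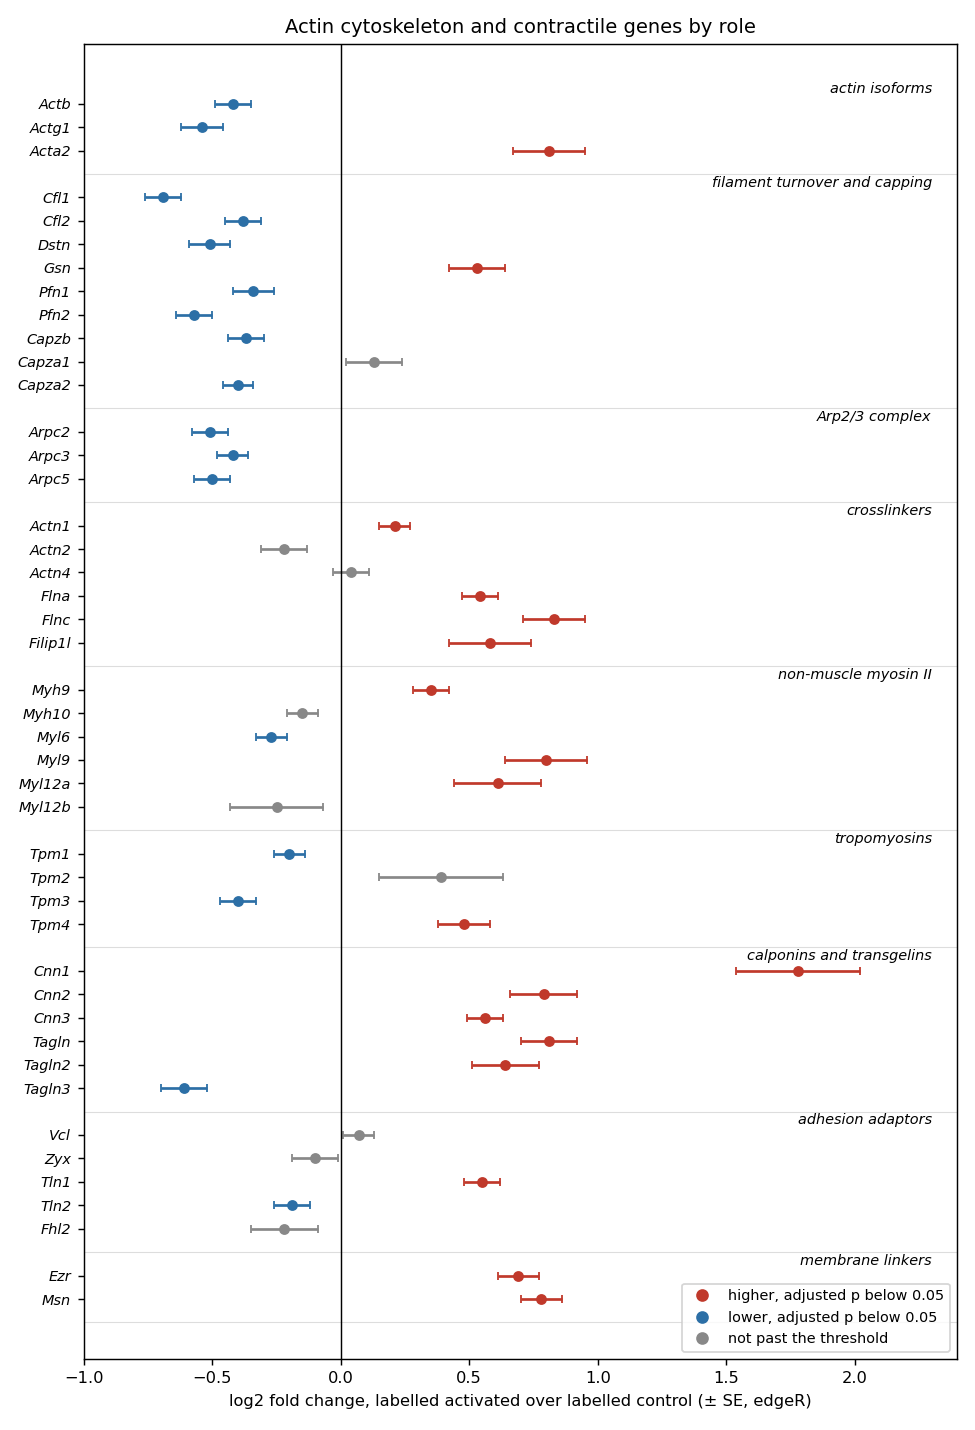
Log2 fold change of each of the 44 genes, labelled activated over labelled control, with its standard error (edgeR, n = 3 each), grouped by role; colour gives the call at an adjusted p of 0.05. The 3 Arp2/3 subunits lie between −0.51 and −0.42, and Ezr and Msn at 0.69 and 0.78.

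The scaling of the libraries sets where 0 lies for these changes. TMM scaling, used throughout unless stated, holds the bulk of genes level, whereas scaling to neuron marker genes moved the median of all genes to 0.39. Under it all 18 higher genes stayed higher, 4 of the 17 lower genes (Cfl1, Pfn2, Actg1 and Tagln3) stayed lower, and the other 13 did not pass. Of the 9 genes that did not pass under TMM, 5 were called higher there: Capza1, Actn4, Myh10, Vcl and Tpm2. The range of the 44 genes moved as a whole, at −0.69 to 1.78 under TMM and −0.35 to 2.12 under neuron marker scaling.

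**Figure D2:**
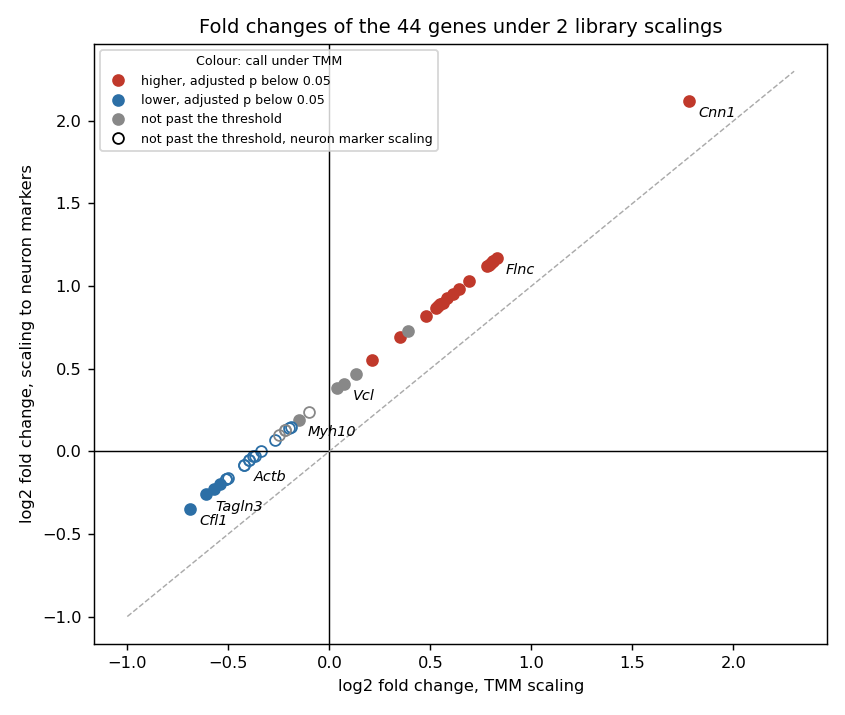
Log2 fold change of each of the 44 genes with TMM scaling (x axis) and with scaling to neuron markers (y axis); colour gives the call under TMM, open symbols did not pass under neuron marker scaling, and the dashed line marks equal values. Every point lies above the dashed line, with Actb at −0.42 and −0.08 and Cnn1 at 1.78 and 2.12.

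The upstream sequences of several of these genes carry a CArG box, the 10-base element bound by SRF, made of CC, 6 bases that are A or T, and GG. This pattern, though not every box that matches it, reads the same on both strands. RefSeq promoter windows (GRCm38.p6) were at hand for 41 of the 44 genes, all but Actb, Tagln and Tln2, which were not searched. A box lay within the 250 bases before a start of 7 of the 41 (17.1%), against 1.62% of all 27025 genes in the table. A gene counted if any of its starts had a box. The genes in the table were not filtered by expression or matched in number of starts. Those 7 fell on both sides of the comparison: Myl9, Cnn2 and Filip1l were higher, Actg1 and Myl6 were lower, and Vcl and Fhl2 did not pass. The stretches around 6 of the boxes are shown, 5′ to 3′ on the gene's strand with the box in capitals, because they set genes that rose, fell or missed the threshold side by side. They lie at chr2:156775278-156775337 (plus strand) for Myl9, chr10:79988519-79988578 (plus) for Cnn2, chr16:57549155-57549214 (plus) for Filip1l, chr11:120348551-120348610 (minus) for Actg1, chr14:20929148-20929205 (plus) for Vcl and chr1:43163962-43164017 (minus) for Fhl2.
Myl9: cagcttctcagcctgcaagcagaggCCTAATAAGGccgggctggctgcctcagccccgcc
Cnn2: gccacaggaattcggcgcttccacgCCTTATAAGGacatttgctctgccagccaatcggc
Filip1l: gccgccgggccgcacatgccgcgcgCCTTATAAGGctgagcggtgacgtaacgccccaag
Actg1: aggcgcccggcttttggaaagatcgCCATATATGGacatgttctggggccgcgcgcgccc
Vcl: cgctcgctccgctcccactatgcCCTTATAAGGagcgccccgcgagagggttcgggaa
Fhl2: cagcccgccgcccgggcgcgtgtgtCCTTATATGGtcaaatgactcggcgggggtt
Cnn2, Filip1l and Vcl carried the same 10 letters, at 56, 62 and 227 bases before the start, with log2 fold changes of 0.79, 0.58 and 0.07. The box of Actg1 began 90 bases before its start and that of Myl9 161 bases before. Myl6, which was lower, had the 10 letters shown for Fhl2, at 50 bases before its start. Fhl2 also had CCAAAAAAGG at 96 bases before another of its starts. Acta2 had no box of this form, and instead had 2 with 1 C or G among the 6 inner bases, CCCTATATGG at 84 and CCTTGTTTGG at 34 bases before its start. That looser form was found for 7 of the 41 genes and for 8.33% of all genes in the table. A match is a description of the letters only.

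Both cytoplasmic actins fell and smooth muscle actin rose. Actb (beta-actin; ENSMUSG00000029580.14, chr5:142903115-142906754, minus strand) had 1321, 1185 and 1382 CPM in libraries labelled activated, against 1813, 1677 and 1724 CPM in those labelled control. Every labelled activated library was below every labelled control library, which is −0.42 ± 0.07 on the log2 scale (± SE here and below; edgeR adjusted p = 0.000704). Actg1 (gamma-actin; chr11:120345690-120348542, minus strand) had 383, 347 and 427 CPM against 579, 547 and 561 CPM, again without overlap (−0.54 ± 0.08; edgeR adjusted p = 0.000145). Acta2 (smooth muscle alpha-actin; ENSMUSG00000035783.9, chr19:34241090-34255590, minus strand), which marks mural cells and myofibroblasts, had 28.2, 21.8 and 32.8 CPM against 17.8, 16.6 and 12.9 CPM. Here all labelled activated libraries were the higher ones (0.81 ± 0.14; edgeR adjusted p = 0.000571). Per kilobase of exon, Actb was the most abundant of the 44 genes, at 484 CPM per kilobase in labelled activated and 649 in labelled control libraries. Acta2 stood at 12.6 and 7.19 on the same scale. Actin genes are near-identical in their coding parts and only uniquely placed reads were counted, so these levels may miss reads.

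Genes of filament turnover fell, with gelsolin the exception. Of the 9 genes for severing, monomer-binding and capping proteins, 7 fell, 1 rose and 1 did not pass. The shares of all tested genes were 20.6% lower and 16.2% higher. Cfl1 (cofilin-1, the main severing protein of neurons; chr19:5490455-5495201, plus strand) had 288, 259 and 294 CPM in labelled activated against 442, 469.6 and 440.3 CPM in labelled control libraries. This was the largest decrease of the 44 genes, at −0.69 ± 0.07 on the log2 scale (edgeR adjusted p = 1.74e-05), except without labelled activated replicate 3, when Tagln3 (−0.75) lay below Cfl1 (−0.72). Its relatives fell less: Cfl2, the muscle cofilin, had 35.6 to 39.9 against 47.9 to 50.6 CPM (−0.38), and Dstn, which encodes destrin, 68.2 to 81.8 against 101 to 115 CPM (−0.51). The log2 ratio of Cfl2 to Cfl1 reads within a library was −2.94, −2.86 and −2.88 in labelled activated and −3.19, −3.29 and −3.12 in labelled control libraries, a comparison that needs no scaling between libraries.

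The profilins, which load monomers onto growing ends, both fell. Pfn2 (profilin-2, the brain form; chr3:57841895-57848079, minus strand) had 177, 159 and 181 CPM in labelled activated against 237, 261 and 271 CPM in labelled control libraries, with no overlap (−0.57 ± 0.07; edgeR adjusted p = 6.71e-05). Pfn1, the widely expressed form, had 39.7 to 47.5 against 52.5 to 59.5 CPM (−0.34). Of the capping protein genes, Capzb, the beta subunit, had 83.2 to 94.7 against 111 to 121 CPM (−0.37), and Capza2 85.7 to 94.9 against 115 to 122 CPM (−0.40). Its sister alpha subunit Capza1 had 27.9, 21.5 and 21.0 against 21.4, 18.8 and 23.4 CPM and did not pass (0.13; edgeR adjusted p = 0.385), with overlapping groups. Gsn (gelsolin, a calcium-regulated severing protein) had 15.6, 15.3 and 19.9 CPM against 12, 12.5 and 11 CPM. It was the one gene of this role to rise (0.53 ± 0.11; edgeR adjusted p = 0.0024).

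All 3 Arp2/3 subunits on the list fell. Arpc2 (ENSMUSG00000006304.14, chr1:74236084-74268209, plus strand) had 81.6, 78.8 and 91.5 CPM in labelled activated against 116, 126 and 118 CPM in labelled control libraries (−0.51 ± 0.07; edgeR adjusted p = 0.000117). Arpc3 had 37.3 to 39.6 against 49.8 to 54.0 CPM (−0.42), and Arpc5 69.7 to 77.9 against 96.2 to 113 CPM (−0.50). None of the 3 overlapped between groups, and none passed under neuron marker scaling (−0.17, −0.08 and −0.16). Of all tested genes, 20.6% were called lower and 26.4% lay lower without overlap. The 6 other genes listed for the complex followed with 5 lower and 1 higher, led by Arpc1a (−0.49), Arpc5l (−0.58), Actr3 (−0.40) and Actr2 (−0.42). The member that rose, Arpc1b, was singled out after its values were seen: it had 8.81, 7.83 and 10.3 CPM against 6.11, 5.33 and 4.55 CPM (0.76). It encodes the alternative to the Arpc1a subunit and is known from blood cells.

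**Figure D3:**
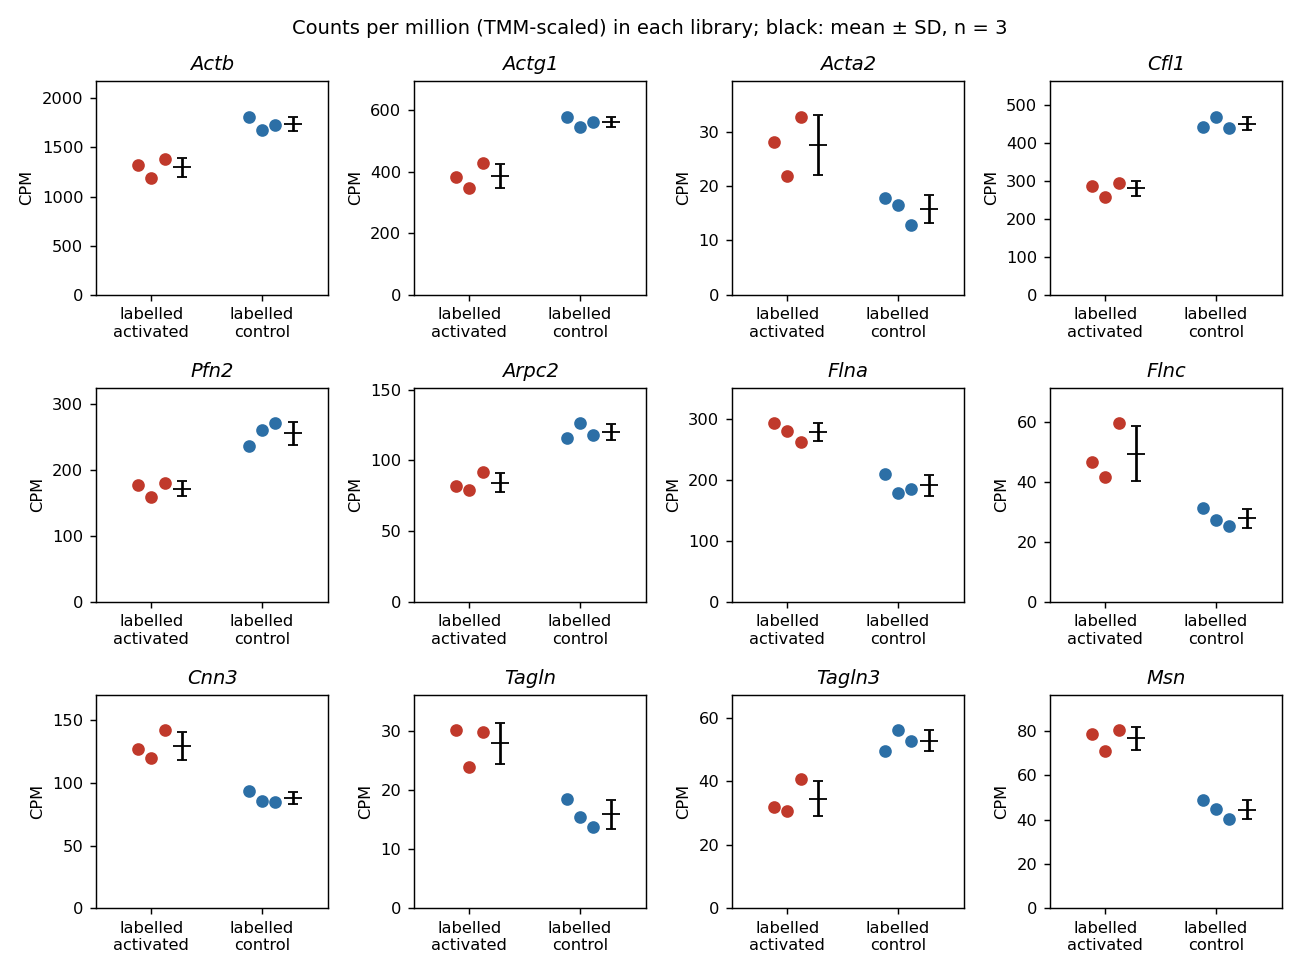
TMM-scaled CPM of selected genes in each library (points) with mean ± SD (n = 3 each), labelled activated on the left of each panel; y axes start at 0. Actb, Actg1, Cfl1, Pfn2, Arpc2 and Tagln3 are lower in all 3 labelled activated libraries, and Acta2, Flna, Flnc, Cnn3, Tagln and Msn higher in all 3.

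Of the 6 crosslinker genes, 4 rose and none fell, against 16.2% of all genes higher. Flna (filamin A; chrX:74223461-74249820, minus strand) had 293, 280.2 and 263 CPM in labelled activated against 209.5, 178 and 186 CPM in labelled control libraries, without overlap (0.54 ± 0.07; edgeR adjusted p = 0.000107). Flnc (filamin C, the muscle form; chr6:29433256-29461883, plus strand) had 46.8, 41.7 and 59.6 against 31.3, 27.3 and 25.2 CPM (0.83 ± 0.12; edgeR adjusted p = 0.000144). Filip1l, whose product resembles a filamin A-interacting protein, was rare, at 3.93, 4.38 and 3.89 against 2.93, 2.54 and 2.69 CPM (0.58), and 19.5% of the reads over both strands at this gene lay on the opposite strand. The alpha-actinins moved little. Actn1 had 142 to 152 against 121 to 133 CPM (0.21; edgeR adjusted p = 0.0173), a call lost with total counts only (0.14) or without labelled control replicate 3 (0.20). Actn4, the other non-muscle form, stood at 115 to 132 and 114 to 127 CPM (0.04; edgeR adjusted p = 0.645), and Actn2, the muscle and spine form, at 19.5 to 23.0 and 22.5 to 25.7 CPM (−0.22; edgeR adjusted p = 0.0652), both with overlapping groups. Actn2 was called lower with total counts only (−0.28), without the low-count filter (−0.24), in unstranded counts (−0.25) and without labelled activated replicate 2 (−0.29).

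The 2 heavy chains of non-muscle myosin II behaved differently. Myh9 (heavy chain A; chr15:77760587-77842175, minus strand) had 173, 158 and 175 CPM in labelled activated against 139.6, 133 and 124 CPM in labelled control libraries (0.35 ± 0.07; edgeR adjusted p = 0.00115). Myh10 (heavy chain B, the main one of neurons) had 345, 334 and 345 CPM against 378, 381 and 377 CPM. Its groups did not overlap, yet it missed the threshold (−0.15 ± 0.06; edgeR adjusted p = 0.0589), and it was called lower with total counts only (−0.22), in unstranded counts (−0.18) and by the DESeq2 and likelihood-ratio tests (−0.15 in both). Under neuron marker scaling it turned to 0.19 and was called higher. The log2 ratio of Myh10 to Myh9 reads, which no scaling affects, was 0.99, 1.08 and 0.98 in labelled activated against 1.44, 1.52 and 1.6 in labelled control libraries.

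Among the light chains, Myl6, the essential light chain of most cells, had 67.6, 70.7 and 66.6 CPM in labelled activated against 85.8, 80.7 and 80.5 CPM in labelled control libraries (−0.27; edgeR adjusted p = 0.00357). Myl9, the smooth muscle regulatory light chain, had 8.21, 6.03 and 9.06 against 4.24, 5.04 and 4.20 CPM (0.80 ± 0.16; edgeR adjusted p = 0.00175). The essential chain was thus lower and the smooth muscle regulatory chain higher in every labelled activated library. Myl12a and Myl12b, the non-muscle regulatory chains, had few reads. In GENCODE mouse release 21 a second gene, also named Myl12b, lies over both and shares 462 and 739 bases of their exons. Myl12a stood at 9.20 to 11 against 4.91 to 8.51 CPM (0.61) and Myl12b at 2.20 to 3.09 against 2.86 to 3.39 CPM (−0.25; edgeR adjusted p = 0.292). Reads in the shared exons may have been set aside as ambiguous, so both levels may be too low. How many reads were lost to these genes was not tested.

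The tropomyosins, which decide which proteins can reach a filament, divided 2 lower, 1 higher and 1 not passing. All tested genes divided 20.6% lower and 16.2% higher. Tpm3 had 40.9, 50.0 and 43.9 CPM in labelled activated against 59.8, 58.3 and 59.8 CPM in labelled control libraries (−0.40; edgeR adjusted p = 0.000991). Tpm1 had 93.7, 85.8 and 86.6 against 102, 99.3 and 103 CPM (−0.20; edgeR adjusted p = 0.0201), a small change whose call was lost without labelled activated replicate 2 (−0.18) or labelled control replicate 1 (−0.19) or 3 (−0.18). Tpm4, a cytoplasmic form, had 35.3, 33.8 and 44.6 CPM against 28.2, 28.7 and 25.1 CPM (0.48; edgeR adjusted p = 0.00197). Tpm2, a muscle form, was near 2 CPM and did not pass, at 2.44, 1.54 and 2.35 against 1.77, 1.86 and 1.21 CPM (0.39; edgeR adjusted p = 0.218).

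Calponins and transgelins gave the clearest contrast within a family. Of these 6 genes 5 rose and 1 fell, against 16.2% higher and 20.6% lower over all tested genes. Cnn1 (smooth muscle calponin; ENSMUSG00000001349.5, chr9:22099216-22109630, plus strand) was rare, with 46, 53 and 80 reads in labelled activated and 21, 13 and 25 reads in labelled control libraries. That corresponds to 2.74, 1.90 and 2.51 CPM against 0.742, 0.550 and 0.739 CPM, a log2 fold change of 1.78 ± 0.24 (edgeR adjusted p = 0.000131). On the opposite strand lay 14.4% of the reads over both strands at Cnn1, and in unstranded counts its change was 1.48. Cnn2 had 14.1 to 18 against 8.26 to 11.1 CPM (0.79). Cnn3, the acidic calponin of brain and the most abundant of the 3 per kilobase, had 127, 119.7 and 142 CPM against 93.5, 86.0 and 85.1 CPM (0.56 ± 0.07; edgeR adjusted p = 8.99e-05). All 3 calponin genes were thus higher without overlap between groups, against 22.6% of all tested genes.

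Tagln (transgelin, or SM22; chr9:45929619-45936058, minus strand), a smooth muscle gene, had 30.1, 23.9 and 29.8 CPM in labelled activated against 18.5, 15.5 and 13.7 CPM in labelled control libraries (0.81 ± 0.11; edgeR adjusted p = 0.000156). Tagln2, its widely expressed relative, had 10.8, 10.5 and 13.7 against 8.27, 6.90 and 7.45 CPM (0.64; edgeR adjusted p = 0.00152). Tagln3 (NP25, the neuronal transgelin; chr16:45711230-45724608, minus strand) ran the other way, with 32.0, 30.7 and 40.7 CPM against 49.5, 56.0 and 52.7 CPM (−0.61 ± 0.09; edgeR adjusted p = 0.000295). The log2 ratio of Tagln2 to Tagln3 reads was −1.57, −1.55 and −1.57 in labelled activated and −2.58, −3.02 and −2.82 in labelled control libraries, and that of Tagln to Tagln3 rose by 1.44 on average. Tagln shares 1241 bases of exon with a gene on the other strand, and in unstranded counts its value was −0.09 with no call.

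Of the 5 adhesion adaptors 1 rose, 1 fell and 3 did not pass, a share of 40% called that is near the 36.8% of all tested genes. Tln1 (talin-1, which activates integrins; chr4:43531519-43562691, minus strand) had 70.3, 65.0 and 75.1 CPM in labelled activated against 49.7, 48.3 and 45.6 CPM in labelled control libraries (0.55 ± 0.07; edgeR adjusted p = 7.18e-05). Tln2, the talin most abundant in brain and heart, had 219, 204 and 189.9 CPM against 228, 239 and 232 CPM. It was called lower (−0.19 ± 0.07; edgeR adjusted p = 0.0343), but passed neither without any single library other than labelled activated replicate 1 (−0.14 to −0.20) nor when only genes at 1 CPM were tested (−0.15). The log2 ratio of Tln2 to Tln1 reads was 1.64, 1.65 and 1.34 in labelled activated and 2.20, 2.31 and 2.35 in labelled control libraries. Vcl (vinculin) stood at 82.4 to 90.7 and 80.0 to 84.1 CPM (0.07; edgeR adjusted p = 0.41), Zyx (zyxin) at 22.5 to 26.4 and 23.4 to 28.5 CPM (−0.10; edgeR adjusted p = 0.387), and Fhl2, a LIM-domain protein of focal adhesions, at 6.82 to 9.03 and 8.34 to 10.1 CPM (−0.22; edgeR adjusted p = 0.195). These 3 genes, known SRF targets in other cells, had overlapping groups.

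Both linkers of filaments to the membrane rose. Msn (moesin; chrX:96096042-96168552, plus strand) had 78.6, 70.9 and 80.2 CPM in labelled activated against 48.6, 44.7 and 40.2 CPM in labelled control libraries, and had the smallest p of the higher genes (0.78 ± 0.08; edgeR adjusted p = 1.79e-05). Ezr (ezrin, abundant in the fine processes of astrocytes; chr17:6738041-6782784, minus strand) had 52.5, 52.3 and 62.4 against 38.2, 33.4 and 32.5 CPM (0.69 ± 0.08; edgeR adjusted p = 6.53e-05). Neither overlapped between groups, while 16.2% of all tested genes were called higher and 22.6% lay higher without overlap. Rdx (radixin), their close relative and no member of the list, was singled out after its values were seen and was lower, at 48.2 to 52.3 against 56.0 to 58.7 CPM (−0.18).

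Ratios between related genes were compared in 18 pairs, since a ratio within a library does not depend on how libraries are scaled. The groups did not overlap for 13 pairs, each with an exact two-sided permutation p of 0.1, the smallest that 3 against 3 samples allow (0.138 after Benjamini-Hochberg adjustment over the pairs). No pair could therefore pass a threshold of 0.05. The share without overlap was not worked out for other pairs of genes, and these pairs were chosen with earlier results known. Over single tested genes that share was 49%. The largest shifts in mean log2 ratio were those of Tagln to Tagln3 (1.44), Tagln2 to Tagln3 (1.25), Acta2 to Actb (1.23) and Myl9 to Myl6 (1.04), followed by Tln2 to Tln1 (−0.74) and Tpm4 to Tpm1 (0.66). Actg1 to Actb shifted by −0.12 and Dstn to Cfl1 by 0.17, small but also without overlap. The pairs that overlapped were Flnc to Flna (0.27), Cnn2 to Cnn3 (0.24), Ezr to Msn (−0.10), Tpm2 to Tpm1 (0.58) and Tpm3 to Tpm1 (−0.21).

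**Figure D4:**
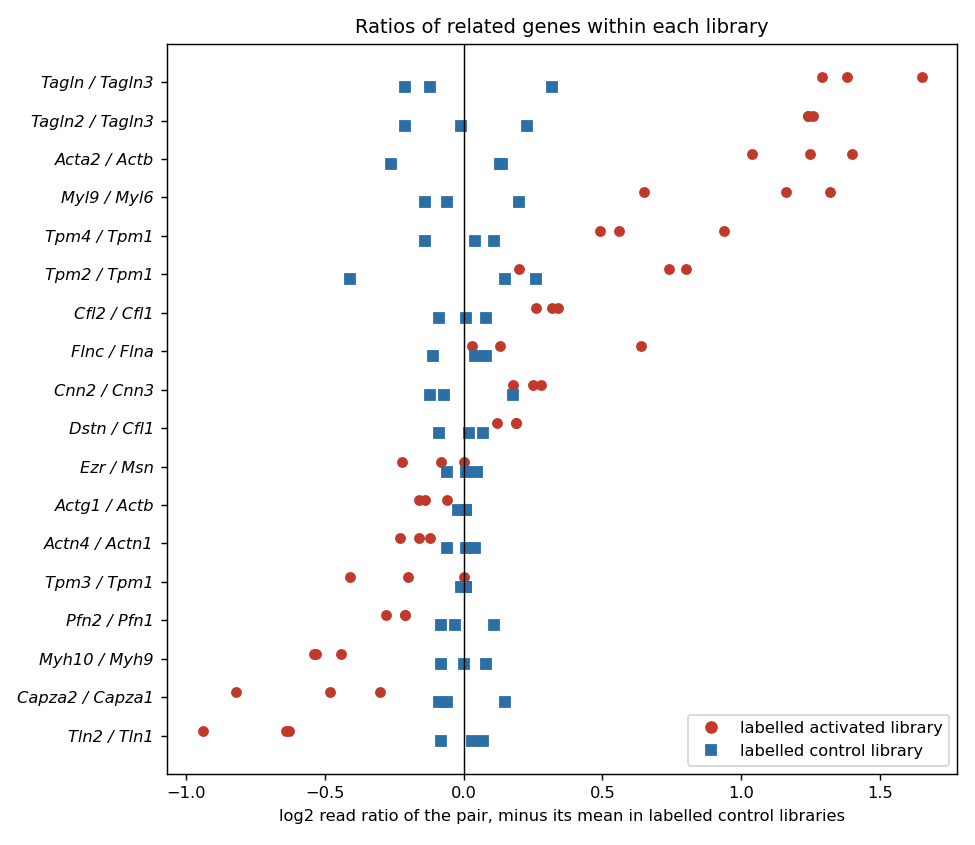
Log2 ratio of the reads of 18 pairs of related genes in each library, less the mean of that ratio in labelled control libraries; circles are labelled activated and squares labelled control libraries. Tagln to Tagln3 shifted by 1.44 and Tln2 to Tln1 by −0.74 on average, while the circles and squares of Ezr to Msn overlap.

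Other actin genes, in lists drawn up by role with earlier results of these data known, had more lower than higher calls under TMM scaling. Of 117 tested of 126 listed, 17 rose (14.5%, against 16.2% of all tested genes) and 55 fell (47%, against 20.6%), while 45 missed the threshold. Under neuron marker scaling the split turned round, with 55 higher and 8 lower. Their median change was −0.16 on the log2 scale. Monomer-binding, severing and capping proteins beyond the 44 had 10 of 18 lower and 1 higher, among them Cap2 (−0.43), the coronins Coro1a (−0.49) and Coro2b (−0.46), and the cofilin cofactor Wdr1 (−0.39). The one that rose was the gelsolin relative Capg (0.62), named after its values were seen. Actin-binding proteins of spines and the neuronal cortex had 16 of 24 lower and none higher, led by Marcksl1 (142 to 164 CPM in labelled activated against 227 to 241 CPM in labelled control libraries; −0.59), Baiap2 (−0.52), Dbnl (−0.53) and the bundling protein gene Fscn1 (−0.55).

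Formins and other nucleators had 6 of 14 lower (42.9%, against 20.6% of all tested genes), including Wasl (−0.34), Fhod3 (−0.24) and Cobl (−0.20). The 2 that were higher (14.3%, near the 16.2% of all tested genes) included Daam2 (0.73). The remaining adhesion genes leaned the other way, with 8 of 21 higher (38.1%) and 1 lower (4.76%). The genes of the LIM proteins Pdlim5 (0.65), Lpp (0.54) and Pxn (0.49) were among those that rose. Of 9 other sarcomeric and smooth muscle genes tested of 16 listed, only Synpo2 was called (0.37). That is 11.1%, against 36.8% of all tested genes.

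SRF and its coactivators were lower under TMM scaling. Neuron marker scaling moved the median of all genes to 0.39, and the changes of these genes under it were not looked at singly. Srf had 24.7, 20.6 and 22.4 CPM in labelled activated against 33.2, 31.8 and 31.2 CPM in labelled control libraries (−0.51 ± 0.08; edgeR adjusted p = 0.00026). Mrtfb (−0.27) and Mrtfa (−0.18) were lower by less, and Myocd, the smooth muscle coactivator, had at most 9 reads in a library and was not tested. Under the same comparison the smooth muscle genes Acta2, Tagln, Cnn1 and Myl9, known from other tissues as SRF targets, were higher, with the values given above. Among the other genes in which a CArG box was found, Actg1 (−0.54) and Myl6 (−0.27) were lower. Cnn2 and Filip1l were higher, and Vcl and Fhl2 did not pass. Nor did Zyx, named above as a known target. Actb (−0.42) and Tln2 (−0.19), not searched for a box, were lower, and Tagln (0.81), also not searched, was higher. This is no full tally of the SRF targets among the 44 genes.

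Markers of other cell types moved beside these genes. For comparison, 16.2% of all tested genes were higher and 20.6% lower. Of 15 astrocyte markers tested, 14 were higher and none lower, and their summed level was 2050.2 to 2478 CPM in labelled activated against 1548 to 1601 CPM in labelled control libraries. Mural cell markers had 4 of 9 tested higher and none lower, at a summed 77.9 to 91.8 against 54.0 to 58.1 CPM, led by Notch3 (30.4 to 40.7 against 21.0 to 25.4 CPM) and Pdgfrb (15.1 to 20.3 against 8.90 to 11.4 CPM). Myh11, Lmod1 and Des stand both on that list and among the smooth muscle genes above. Fibroblast markers had 4 of 7 higher and none lower (371 to 413 against 253 to 274 CPM), with Fn1 taking 185 to 207 against 100.5 to 136 CPM of that sum. Endothelial markers summed to 44.5 to 48.5 against 30.2 to 33.8 CPM, with 2 of 5 tested higher, and oligodendrocyte lineage markers to 79.3 to 91.1 against 60.7 to 65.9 CPM, with 4 of 8 higher. Microglia sums overlapped, at 78.5 to 145 against 64.2 to 87.2 CPM, with 7 of 13 markers higher. Several defining markers were at or near 0: Cldn5 and Cdh5 of endothelium and Higd1b of pericytes had at most 1 read in any library, Sox10 at most 2, Lum at most 5, Tmem119 at most 8 and Kcnj8 at most 9.

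Neuron markers moved the other way for the most part, beside 20.6% lower and 16.2% higher over all tested genes. Beside the pan-neuronal list above, inhibitory markers had 10 of 18 lower and none higher, at a summed 2645 to 2934 CPM in labelled activated against 3336 to 3450.1 CPM in labelled control libraries. Excitatory markers had 9 of 16 lower and 1 higher, yet their sum was 2531 to 2727 against 2413 to 2530.1 CPM, and Camk2a, the highest of them, stood at 1175 to 1381 against 922 to 1045 CPM. The part of these markers, and of the larger mitochondrial share, in the changes of the 44 genes was not tested. Across the 44 genes the log2 fold change fell with the mean level (Spearman correlation −0.52, n = 44 genes of the same 6 libraries; −0.39 over all tested genes) and hardly followed exon length (0.13 over the 44, −0.04 over 18113 genes with a length). Genes share libraries, so these are descriptions only.

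**Figure D5:**
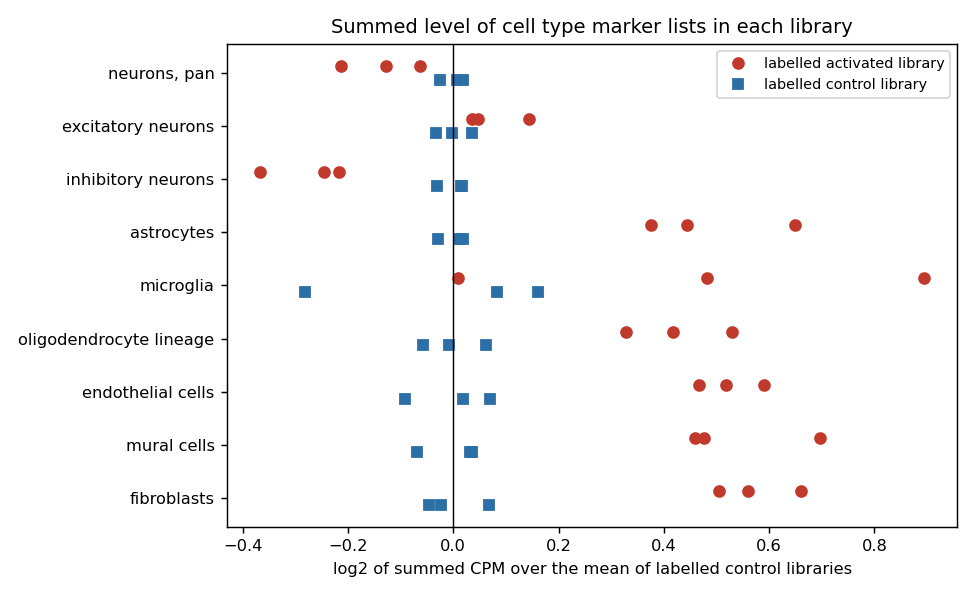
Summed CPM of each cell type marker list in each library, as log2 over the mean of the labelled control libraries; circles are labelled activated and squares labelled control libraries. Astrocyte, oligodendrocyte lineage, endothelial, mural and fibroblast sums lie higher in all 3 labelled activated libraries. So do excitatory neuron sums, narrowly (2531 to 2727 against 2413 to 2530.1 CPM). Inhibitory and pan-neuronal sums lie lower in all 3, and microglia sums overlap.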

How the data were processed

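Total RNA depleted of ribosomal RNA was sequenced as strand-specific libraries, in paired reads of 150 bp, per the labels' protocols. STAR 2.5.2b, edgeR and the mm10 build are named in the submitters' processing notes. No source used here gives the aligner's settings or the annotation it counted against. The deposited values are raw counts per gene, 1 file a library. The reverse-strand column was used, since 4.05% to 4.29% of strand-assigned gene reads lay on the other strand. Lines naming no gene (unmapped, multimapping, outside exons, ambiguous) held 43.1% to 50.7% of reads in labelled activated and 42.3% to 43.8% in labelled control libraries, and were left out of library sizes and tests. Symbols, positions and merged exon lengths came from GENCODE mouse release 21 (GRCm38, the same assembly as mm10), in which 55144 of 55385 identifiers were found without version suffix.

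Genes passing filterByExpr (minimum count 10, minimum total 15; 18132 genes) were scaled by TMM. Group was the only term of the quasi-likelihood fit (edgeR 4.0.16 under R 4.3.3), with Benjamini-Hochberg adjustment over all tested genes at 0.05. The biological coefficient of variation was 0.076. Fold changes are labelled activated over labelled control. Each standard error is the size of the log2 change divided by the root of its F statistic, and CPM values use the TMM-scaled library sizes. Ratios of related genes were tested by exact permutation. Alternatives were DESeq2 1.42.0 size factors and Wald test, total counts, scaling to the median ratio of neuron markers, the likelihood-ratio test, 2 other filters, unstranded counts, a replicate block and each library left out.

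The 44 genes, the other lists and the pairs were chosen with earlier results of these data known. All 44 are named. Of each other actin list, the up to 4 genes of smallest p past the threshold are named, with Srf, Mrtfa, Mrtfb and Myocd. The results of 1 list, and 1 gene of another that this rule names, are not reported here. Of each marker list, the 2 tested genes of highest mean CPM may be named. Arpc1b, Capg, Rdx, Arc, Npas4, Fos, Fosb, Egr2 and the markers near 0 fall outside this rule and were chosen after their values were seen.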

Additional observations from a re-analysis of the deposited data

How the results depend on the processing

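Of the 18 higher genes, 16 kept direction and call under every alternative apart from neuron marker scaling, and of the 17 lower genes 15 did. The exceptions were Actn1 and Tagln among the higher and Tpm1 and Tln2 among the lower genes. Neuron marker scaling changed most: 9642 of all tested genes were higher and 457 lower, 23 of the 44 genes were higher and 4 lower, their median was 0.31, and the other actin lists had 55 higher and 8 lower. Values that changed sign there were Pfn1 (0.00), Actn2 (0.13), Myh10 (0.19), Myl6 (0.07), Myl12b (0.10), Tpm1 (0.14), Zyx (0.24), Tln2 (0.15) and Fhl2 (0.13). The shift of all genes together follows from the scaling itself. The median of the 44 genes, −0.03 with TMM, was −0.10 with total counts only, 0.01 with genes at 1 CPM in 3 libraries, −0.12 with unstranded counts, and −0.08 to 0.04 with 1 library left out, so its sign is not settled. The cause was not tested. Leaving out 1 library gave 17 to 18 higher and 15 to 17 lower of the 44 genes. Other sign changes were those of Actn4 (−0.03) and Vcl (0.00) with total counts only, Tagln (−0.09) and Vcl (−0.02) with unstranded counts, Capza1 (0.00) without labelled activated replicate 1 and Actn4 (−0.02) without labelled activated replicate 3. Leaving out 1 library at a time gave 0.00 to 0.21 for Capza1 and −0.02 to 0.10 for Actn4. All but Tagln had no call before or after. Total counts only made 2089 genes higher and 4576 lower (68.7% of called genes lower, against 55.9% with TMM).

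With the replicate number as a block, 2173 of all tested genes were higher and 3105 lower, and 18 of the 44 genes were higher and 15 lower. Tpm1 and Tln2 lost their calls (edgeR adjusted p = 0.0535 and 0.0723). The numbers are not stated to mark shared cultures, and deviations from the group means of libraries with the same number correlated at −0.014, −0.182 and −0.215, and no library correlated best with its own number. Depth limits the rarest genes, Cnn1, Tpm2, Myl12b and Filip1l, the first of which rests on 13 to 80 reads a library.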
